A study of Mus musculus with 278 samples.

Results

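Of 278 single spermatogonia, 75 contained Gfra1 transcripts without Kit (Gfra1-only cells) and 42 contained Kit without Gfra1 (Kit-only cells), and these 117 cells were compared. The cells were selected on measured values: a Gfra1-only cell had Gfra1 at an FPKM (mapped fragments scaled to transcript length and to the total of the cell) of at least 1 and Kit below 1, and a Kit-only cell had the reverse. A further 122 cells passed the threshold for both genes and 39 for neither. All cells came from untreated mice at postnatal day 6 that carried an Id4-EGFP reporter, and all had been sorted as EGFP-positive, so spermatogonia without reporter signal are not represented. EGFP brightness at capture is given by quartile, Q1 being the brightest of the 4 and Q4 the dimmest. Sample titles carry a number from Seq1 to Seq5, called a preparation here; what separates these numbers is not described, and the testes of at least 2 pups were pooled for a cell suspension. Gfra1-only cells numbered 1, 19, 15, 17 and 23 in preparations 1 to 5, and Kit-only cells 1, 7, 2, 14 and 18. Preparation 1 therefore contributed a lone cell to each class, and preparation 3 a pair of Kit-only cells.

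GFRA1 is the co-receptor through which GDNF, secreted by Sertoli cells, activates the RET receptor tyrosine kinase, and in the postnatal testis this signal maintains spermatogonial stem cells. FGF signals act beside GDNF, and both raise transcription factors and feedback inhibitors such as ETV5, BCL6B, DUSP6 and SPRY4. KIT is the receptor for KIT ligand and appears as spermatogonia commit to differentiation under retinoic acid, which also induces Stra8.

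Gfra1 (chr19:58235604-58455909, minus strand) ranged from 1.33 FPKM through a median of 29.4 to 403 FPKM in the Gfra1-only cells, and Kit (chr5:75574916-75656722, plus strand) from 1.15 through 46.5 to 208 FPKM in the Kit-only cells. Kit was listed at 0 in 60 of the 75 Gfra1-only cells and lay between 0 and 1 in the other 15. Gfra1 was listed at 0 in 33 of the 42 Kit-only cells and lay between 0 and 1 in the other 9. Over all 278 cells, the Gfra1 values just under the threshold were 0.774, 0.798, 0.879, 0.889 and 0.959 FPKM and those just over it 1.05, 1.33, 1.37, 1.48 and 1.86 FPKM. For Kit the values just under were 0.826, 0.829, 0.871, 0.915 and 0.925 FPKM and those just over 1.03, 1.06, 1.11, 1.15 and 1.27 FPKM. These values chose the classes and are given as a description; neither gene entered any test.

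**Figure D1:**
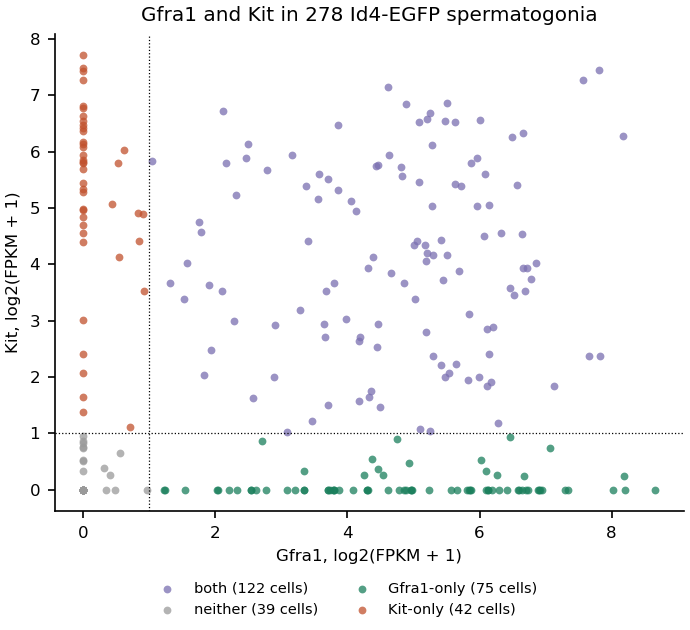
Each point is 1 of the 278 cells, with log2(FPKM + 1) of Gfra1 on the horizontal axis and of Kit on the vertical axis. Dotted lines mark an FPKM of 1. The 75 Gfra1-only cells lie along the bottom and the 42 Kit-only cells along the left edge, while 122 cells carry both transcripts.

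EGFP brightness was not part of the rule. The bright quartiles Q1 and Q2 held 45 of the 75 Gfra1-only cells (60%) and 13 of the 42 Kit-only cells (31%). By preparation, 100%, 52.6%, 46.7%, 58.8% and 73.9% of Gfra1-only cells were bright, against 100%, 71.4%, 0%, 28.6% and 16.7% of Kit-only cells. Gfra1-only cells had the larger share in 3 of 5 preparations and the smaller share in preparation 2. The means were 66.4% ± 21.3 (SD, n = 5) and 43.3% ± 41.3 (SD, n = 5), and an exact sign-flip permutation test over preparations gave a two-sided p of 0.25. With equal shares in preparation 1, the smallest p this test could give was 0.125; with 5 unequal pairs, as in the measures below, it is 0.063. Differences in detection and depth between these 2 classes stayed within the preparation spread. The classes had 5979 ± 1002 and 5966 ± 1210 genes at an FPKM of at least 1 per cell (SD, n = 5, exact sign-flip p = 0.8125). Cells with both transcripts had more detected genes than either class in every preparation. Pooled means were 6537 with both, 5864 in Gfra1-only, 6111 in Kit-only and 5143 with neither. The part of missed detection in the choice of the classes was not tested. Depth was estimated at a median of 621023 fragments per cell, and the class difference in its log2 was 0.23 ± 0.28 (SD, n = 5; exact p = 0.125).

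**Figure D2:**
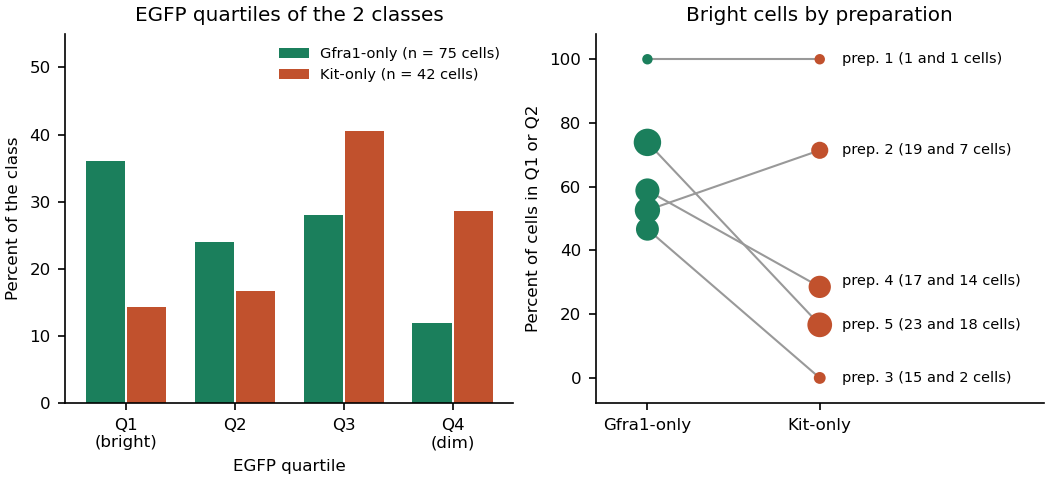
Left, bars give the percent of each class in EGFP quartiles Q1 (bright) to Q4 (dim), over 75 Gfra1-only and 42 Kit-only cells. Right, each pair of joined points is a preparation, with the percent of cells in Q1 or Q2 on the vertical axis and point area growing with the number of cells. Gfra1-only cells had the larger bright share in preparations 3, 4 and 5 and the smaller in preparation 2.

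Germ cell markers were present in both classes. Ddx4, Dazl, Mael and Uchl1 were all detected in all 75 Gfra1-only and all 42 Kit-only cells, with a median summed level of 2979 and 3290 FPKM. Median summed levels of the defining Sertoli, Leydig, peritubular, endothelial and immune markers were 0 in both classes. A summed level of at least 10 FPKM was seen for Sertoli markers in 9 of 75 Gfra1-only and 5 of 42 Kit-only cells, for Leydig markers in 4 and 4, for peritubular markers in 12 and 2, for endothelial markers in 5 and 1, and for immune markers in 14 and 0. The highest summed levels of these sets ran from 51.3 to 149 FPKM in Gfra1-only and from 9.63 to 165 FPKM in Kit-only cells. Of the peritubular markers, 4 Gfra1-only cells and 0 Kit-only cells had at least 2, and none had all 4. The part of these transcripts in the gene differences was not tested. Amh, Cyp17a1, Cyp11a1, Insl3, Acta2 and Lyz2 were listed at 0 in every cell of both.

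Gfra1-only cells had higher levels of 8 of 23 tested targets of GDNF and FGF signalling, among them Dusp6, Etv5 and Spry4, and of the stem cell-associated genes Tcl1 and Ret. Kit-only cells had higher levels of 2 of 13 tested retinoic acid-associated genes (Stra8 and Crabp1) and of 2 of 14 tested differentiation-associated genes (Stra8 and Sohlh2), while 1 gene of each list, Dhrs3 and Ccnd2, was higher in Gfra1-only cells. Log2(FPKM + 1) was averaged over the cells of a class in each preparation, and limma was fitted to 19 such means with preparation as a block. Of 10450 genes tested, 88 differed at an adjusted p (Benjamini-Hochberg) under 0.05, which is 0.842% of the genes: 68 were higher in Gfra1-only cells (0.651%) and 20 were lower (0.191%). The differences ran from 0.90 to 3.88 among the higher genes and from -0.79 to -2.86 among the lower ones, on the log2(FPKM + 1) scale, which understates the change of low genes. At an unadjusted p under 0.05, 626 genes were higher and 651 lower, and the median over all genes was -0.03. All 88 had the same direction in preparations 2, 4 and 5, and 54 in all 5 preparations. The genes were called from these same preparations, and preparations 2, 4 and 5 hold most of the cells. This agreement therefore describes the called genes and is not separate support, and the same counts over all genes tested are not given here.

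The number of calls rested on preparation 5, which holds 23 and 18 of the cells, and on the uneven weights of the means. Without preparation 5 only 6 genes passed: Tcl1, Tagln2, Stra8, Gfpt2, Dusp6 and Etv5. Without preparation 2 or 4, 36 and 42 genes passed. Fitted without the preparation block, 8 genes passed, and with equal weights for all means 3 genes did. With the mean EGFP quartile as a covariate 8 genes passed, among them Tcl1, Tagln2, Dusp6, Gfpt2, Etv5 and Stra8. All 88 kept their sign in each of these fits, which reuse the same cells, and Tcl1 and Tagln2 passed in all 19 alternatives tried.

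RET is the kinase that GFRA1 brings to GDNF. Mean Ret levels in preparations 1 to 5 were 21, 28.5, 17.6, 16.1 and 19.4 FPKM in Gfra1-only cells and 18.9, 4.94, 0, 6.35 and 1.99 FPKM in Kit-only cells. Apart from the lone Kit-only cell of preparation 1, every Kit-only mean lay below every Gfra1-only mean. The difference was 2.19 ± 0.44 (SE; adjusted p = 0.0117), and Ret was detected, at an FPKM of at least 1, in 85.3% of Gfra1-only and 47.6% of Kit-only cells. Ret was the 1 called member among 7 tested receptors and co-receptors of GDNF and FGF. Gfra3, the co-receptor for artemin, was at -0.79 ± 0.25 (adjusted p = 0.156), and Fgfrl1 at 0.43 and Ncam1 at 0.19 did not pass either.

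The targets of GDNF and FGF signalling held 8 called genes of 23 tested, all higher in Gfra1-only cells, with a list median of 0.76 beside -0.03 for all genes. DUSP6 is a phosphatase that switches off ERK, the kinase at the end of the FGF and RET cascade. Mean Dusp6 was 34.2, 84.5, 114, 96.3 and 74.3 FPKM in Gfra1-only cells of preparations 1 to 5, and 94.3, 45.5, 0, 16.3 and 10.3 FPKM in Kit-only cells. The lone cells of preparation 1 went the other way, and the means of the other 4 preparations did not overlap. The difference was 3.45 ± 0.42 (SE; adjusted p = 8.81e-05).

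ETV5 is an ETS transcription factor required for stem cell self-renewal. Its transcript averaged 67.1, 75.4, 69, 47.2 and 53.5 FPKM in Gfra1-only cells and 111, 18.6, 0, 11.5 and 11.3 FPKM in Kit-only cells, again with preparation 1 reversed. The difference was 3.25 ± 0.42 (SE; adjusted p = 0.000147). Only 17 of 42 Kit-only cells had Etv5 at an FPKM of at least 1, against 73 of 75 Gfra1-only cells.

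Spry4, which encodes a feedback inhibitor of receptor tyrosine kinases, averaged 111, 22.6, 16.1, 38.4 and 27.9 FPKM in Gfra1-only cells and 2.18, 17.4, 0, 3.48 and 1.04 FPKM in Kit-only cells. Its difference was 2.60 ± 0.39 (SE; adjusted p = 0.00126), higher in 5 of 5 preparations, although the ranges overlapped slightly. BCL6B is a transcriptional repressor induced by GDNF, and its transcript averaged 16.5 to 32.5 FPKM in Gfra1-only and 0 to 11.3 FPKM in Kit-only preparations, without overlap (difference 2.13 ± 0.36, adjusted p = 0.00339). Lhx1 (1.22 ± 0.25), Egr2 (1.77 ± 0.38), Egr1 (2.21 ± 0.42) and Tspan8 (1.79 ± 0.41) completed the called members. The LIM homeobox gene Lhx1 was sparse, with detection in 37.3% and 11.9% of cells.

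The remaining feedback inhibitors and targets did not pass. Spry2 was at 0.76 ± 0.33 (adjusted p = 0.344), Spry1 at 0.17, Spred2 at 0.47, Etv4 at 0.34, Dusp5 at 0.22, Ccnd1 at -0.46 and Mycn at -0.88. Egr1 and Fos are also immediate early genes, which respond to tissue dissociation. That list had 1 called gene of 15, Egr1, and a median of 0.49. Its preparation medians ran from -1.01 to 0.99, and the part of dissociation in the Egr1 difference was not tested.

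Among genes associated with spermatogonial stem cells, 7 of 23 tested were called, all higher in Gfra1-only cells: Tcl1, Etv5, Bcl6b, Ret, Lhx1, Egr2 and Tspan8. The list median was 0.87. Of the called genes, Etv5, Bcl6b, Lhx1, Egr2 and Tspan8 are in both this list and the GDNF and FGF targets. So are Id4, Nanos2 and Pou3f1, which were not called. The lists and their medians are therefore not separate evidence. Tcl1 encodes a co-activator of the AKT kinase and had the largest difference of all genes called. Mean Tcl1 was 535, 199, 257, 239 and 188 FPKM in Gfra1-only cells and 49.8, 70.4, 38, 53.4 and 9.77 FPKM in Kit-only cells. The lowest Gfra1-only mean lay above the highest Kit-only mean, and the difference was 3.88 ± 0.42 (SE; adjusted p = 2.61e-05). Tcl1 was detected in 92% of Gfra1-only and 52.4% of Kit-only cells.

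Several well-known stem cell genes did not pass. Id4, the gene the reporter is named for, averaged 45.3, 12, 5.53, 21.4 and 23.9 FPKM in Gfra1-only cells and 0, 0.811, 0, 5.66 and 3.36 FPKM in Kit-only cells. It was higher in 5 of 5 preparations (1.49 ± 0.37, adjusted p = 0.0547). Nanos2, an RNA-binding repressor of differentiation, was detected in 33.3% of Gfra1-only and 7.14% of Kit-only cells (1.21 ± 0.32, adjusted p = 0.0768). Zbtb16, which encodes the repressor PLZF, was at 1.02 ± 0.40 (adjusted p = 0.261), Cdh1 at 0.87 and Sall4 at 0.50. Utf1 (-0.52), Taf4b (-0.59) and Gpr125 (-0.84) lay below 0, and none of these passed the test. Nanos3, a progenitor gene, was at 1.58 ± 0.48 (adjusted p = 0.128).

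**Figure D3:**
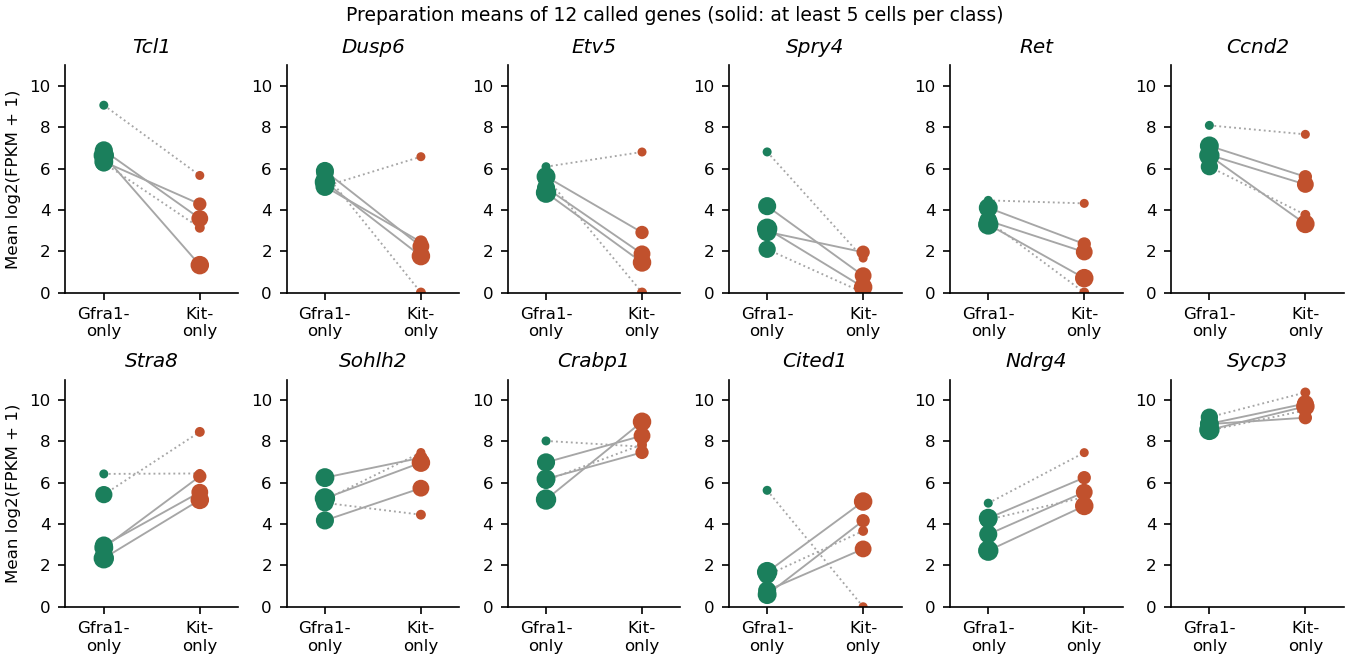
Each panel gives 1 called gene, with mean log2(FPKM + 1) per preparation on the vertical axis for Gfra1-only (left) and Kit-only cells (right), lines joining the same preparation and point area growing with the number of cells. Solid lines are preparations with at least 5 cells of each class (2, 4 and 5), and all of them fall from left to right in the top row and climb in the bottom row. Dotted lines are preparations 1 and 3, and that of preparation 1 goes the other way for Dusp6, Etv5, Crabp1 and Cited1, as does that of preparation 3 for Sohlh2.

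Outside these lists, Tagln2, which encodes an actin-binding protein, averaged 235, 183, 219, 260.0 and 229 FPKM in Gfra1-only cells and 20.1, 70.8, 38.4, 94.4 and 69.1 FPKM in Kit-only cells. Here too the means did not overlap, and the difference was 2.64 ± 0.33 (SE; adjusted p = 9.53e-05). Dstn, whose product destrin severs actin filaments, differed by 1.36 ± 0.23 at a much higher level (374 to 529 FPKM against 237 to 336 FPKM). Capg, another actin-binding gene, differed by 2.61 ± 0.44, with the lone cells of preparation 1 reversed.

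Gfpt2 encodes an enzyme of the first step of the hexosamine pathway. It averaged 50.3 to 115 FPKM in Gfra1-only and 0 to 29.7 FPKM in Kit-only preparations, without overlap (2.90 ± 0.40, adjusted p = 0.000342). Fyn, a SRC-family kinase (2.29 ± 0.38), Mcam, a cell adhesion molecule (2.25 ± 0.39), and Sdc4, a heparan sulfate proteoglycan (1.52 ± 0.23), were also higher, Sdc4 in 4 of 5 preparations. Sdc4 was among the most abundant of these, at a median of 2193 FPKM in Gfra1-only and 946 FPKM in Kit-only cells, and it was detected in every cell of both classes. Ppfibp2 (2.42 ± 0.38), Upf3b, a factor of nonsense-mediated decay (2.56 ± 0.45), Ell3, an elongation factor (2.49 ± 0.45), Usp44, a deubiquitinase (1.74 ± 0.32), and Gpx1, a glutathione peroxidase (1.45 ± 0.27), were higher in 5 of 5 preparations.

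Among the genes higher in Kit-only cells the smallest p was that of Stra8, a retinoic acid-induced gene needed for meiotic entry. Mean Stra8 was 85.2, 30.1, 189.9, 47.7 and 35.3 FPKM in Gfra1-only cells of preparations 1 to 5 and 86.5, 195, 452, 152 and 139 FPKM in Kit-only cells. It was higher in Kit-only cells of every preparation, by almost nothing in preparation 1, and the 2 sets of means overlapped. The difference was -2.84 ± 0.45 (SE; adjusted p = 0.00143). Single cells overlapped widely: 44 of 75 Gfra1-only cells had Stra8 at an FPKM of at least 1, with 721 FPKM in the highest, against 37 of 42 Kit-only cells with 918 FPKM in the highest.

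Crabp1, which encodes a cytoplasmic retinoic acid-binding protein, averaged 259.7, 132, 141, 221 and 99.6 FPKM in Gfra1-only cells and 214, 251, 232, 355 and 630.5 FPKM in Kit-only cells. All 42 Kit-only cells had it, and its difference was -2.22 ± 0.42 (SE; adjusted p = 0.00835), with preparation 1 reversed. The retinoic acid list had 13 tested members, of which Stra8 and Crabp1 were lower in Gfra1-only cells and Dhrs3, whose product reduces retinal back to retinol, was higher (1.57 ± 0.38, adjusted p = 0.0458). Rarg, a retinoic acid receptor gene, was at -0.43 and did not pass. The list median was -0.17 and changed sign, to 0.10, when FPKM were averaged before taking logs.

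To describe the sequence upstream of the called genes, RefSeq start sites on GRCm38.p6 were used; these were available for 60 of the 88 called genes, 41 higher and 19 lower, and for 7878 of all genes tested, and 250 bases before each start were searched on both strands for 6 motifs. AGGTCA, the hexamer that retinoic acid receptors and other nuclear receptors bind in repeats, occurred in 7 of 41 higher (17.1%) and 2 of 19 lower genes (10.5%), against 10.1% of all. CACGTG, the palindromic E-box of basic helix-loop-helix factors, occurred in 4 of 41 (9.76%) and 6 of 19 (31.6%), against 9.39%. CCGGAA, an ETS core, occurred in 12.2% and 15.8% against 25.4%. GGGCGG, the GC box, occurred in 73.2% and 84.2% against 62.4%, and may overlap other GC-rich motifs. TGACGTCA, the cyclic AMP response element, occurred in 2 and 0 genes (3.11% of all), and the CArG box of serum response factor in 0 and 1 (1.12%). Stra8 held 2 copies of AGGTCA, at bases -194 to -189 and -38 to -33 from its RefSeq start, in a stretch that a longer GENCODE transcript annotates as UTR. Matches in the higher genes, the AGGTCA match of Sycp3 and matches of the other motifs are not shown. Some of the matches behind these counts follow, 5′ to 3′ on the gene's strand, with the motif in capitals and 10 bases on either side. They are both Stra8 matches (plus strand, chr6:34920744-34920769 and chr6:34920900-34920925) and the CACGTG matches of the 6 lower genes.
Stra8 distal: tggggtgaaaAGGTCAtcttgctcct
Stra8 proximal: ctggggtaccAGGTCAgttttttacc
Sycp3 distal: cgttggctccCACGTGagaacgggca
Sycp3 proximal: gggcatggagCACGTGctaggaggcg
Bnip3: gcacgcgccgCACGTGccacacgctc
Igfbp2: tgtgcacaagCACGTGccctcacgca
Dusp2: gccagagtccCACGTGaagccgcggg
Abcc4: gggtctcaagCACGTGcggcttcccc
Bex4: acgcaagtggCACGTGactagcccac
The CACGTG windows lie at chr10:88459513-88459538 and chr10:88459534-88459559 (Sycp3, plus strand), chr7:138909599-138909624 (Bnip3, minus strand), chr1:72824328-72824353 (Igfbp2, plus), chr2:127336040-127336065 (Dusp2, plus), chr14:118706409-118706434 (Abcc4, minus) and chrX:136138977-136139002 (Bex4, plus). The Bex4 window overlaps annotated UTR of its gene. A match is a run of letters and says nothing of binding.

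SOHLH2 is a basic helix-loop-helix factor that pushes spermatogonia toward differentiation. Mean Sohlh2 was 35.2, 103, 104, 50.3 and 75.9 FPKM in Gfra1-only cells and 176, 188, 27.7, 87.9 and 163 FPKM in Kit-only cells. Kit-only cells were higher in 4 of 5 preparations, the exception being the 2 cells of preparation 3, and the difference was -1.37 ± 0.30 (SE; adjusted p = 0.0259). Its partner Sohlh1 was at -1.35 ± 0.37 (adjusted p = 0.0941). Sycp3, a component of the synaptonemal complex, was abundant in both classes and lower in Gfra1-only cells (-0.84 ± 0.20, adjusted p = 0.0464). It was the 1 called gene of 21 tested meiotic genes, whose median was -0.24.

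Of 14 tested genes associated with differentiating spermatogonia, 2 were lower in Gfra1-only cells (Stra8 and Sohlh2) and 1, Ccnd2, was higher. Ccnd2 encodes cyclin D2, a G1 cyclin. Its mean was 271, 150.4, 121, 113 and 139 FPKM in Gfra1-only cells and 201, 95.2, 91.2, 61.6 and 34.3 FPKM in Kit-only cells, higher with Gfra1 in 5 of 5 preparations (2.19 ± 0.34, adjusted p = 0.00143). Dnmt3b, a de novo DNA methyltransferase, averaged 0.451, 27.2, 28.9, 25.0 and 26.1 FPKM against 133, 53.1, 57.3, 47.9 and 57.9 FPKM, without overlap, and just missed the threshold (-1.77 ± 0.43, adjusted p = 0.0509). Uchl1 (-0.64 ± 0.16, adjusted p = 0.0547) and Dmrtb1 (-0.89 ± 0.25, adjusted p = 0.102) did not pass. The list median was -0.31.

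Other genes lower in Gfra1-only cells have no shared label. Ndrg4 averaged 31.3, 43.1, 62.3, 40.2 and 27.9 FPKM in Gfra1-only cells and 175, 92.5, 52.4, 91.1 and 84 FPKM in Kit-only cells (-2.02 ± 0.35, adjusted p = 0.00379). Its mean log2 level was lower in Gfra1-only cells of every preparation, although in preparation 3 the mean FPKM was not. The transcriptional co-regulator gene Cited1 was detected in 25.3% of Gfra1-only and 64.3% of Kit-only cells (-2.86 ± 0.51). Bnip3, a mitophagy receptor gene, was at -2.12 ± 0.39, with detection in 81.3% and 97.6% of cells. Bex4 (-1.95 ± 0.37), Kctd6 (-2.08 ± 0.44), Asb9 (-1.86 ± 0.41), Tuba4a, an alpha-tubulin gene (-1.87 ± 0.43), Bpgm, a bisphosphoglycerate mutase gene (-1.53 ± 0.37), and Nmt2, an N-myristoyltransferase gene (-0.79 ± 0.18), were lower in 5 of 5 preparations. Igfbp2, an IGF-binding protein gene (-1.91 ± 0.44), and Abcc4, a transporter gene (-1.66 ± 0.38), were lower in 4 of 5. The neuropeptide gene Gal was detected in 2 of 75 Gfra1-only and 11 of 42 Kit-only cells (-1.31 ± 0.28).

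Of 9 tested progenitor genes limma called none, and the list median was -0.30. At an unadjusted p under 0.05, 1 was higher and 1 lower, beside 626 and 651 of all 10450 genes. Neurog3, a marker of early progenitors, was detected in 9 of 75 Gfra1-only and 7 of 42 Kit-only cells (-0.23 ± 0.26), and Sox3 was at -0.30. For the transducers of KIT signalling, 1 of 26 tested genes was called: Fyn, higher in the cells without Kit. Pik3ca (1.18), Akt1 (-1.15) and Stat5b (-0.58) did not pass, and the median was 0.14.

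Few cell cycle genes were called. Of 54 genes of G1/S and DNA replication only Ccnd2 passed (median 0.10), and of 52 genes of G2/M none did (median -0.15), with 1 higher and 1 lower at an unadjusted p under 0.05. By limma at the same threshold none was called among 18 glycolytic genes (median 0.15), 80 respiratory chain subunits (median -0.10), 83 ribosomal protein genes (median -0.05), 11 genes of DNA methylation (median 0.19) or 18 piRNA genes (median -0.06). At an unadjusted p under 0.05 these 5 lists had 1, 1, 1, 1 and 0 genes higher and 0, 10, 3, 2 and 1 lower. For these and the G2/M counts, the numbers over all 10450 genes tested were 626 higher and 651 lower. In the respiratory chain, Ndufv1 was at 1.00 ± 0.26 (adjusted p = 0.0657) and Uqcrc1 at -0.58 ± 0.18 (adjusted p = 0.138).

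**Figure D4:**
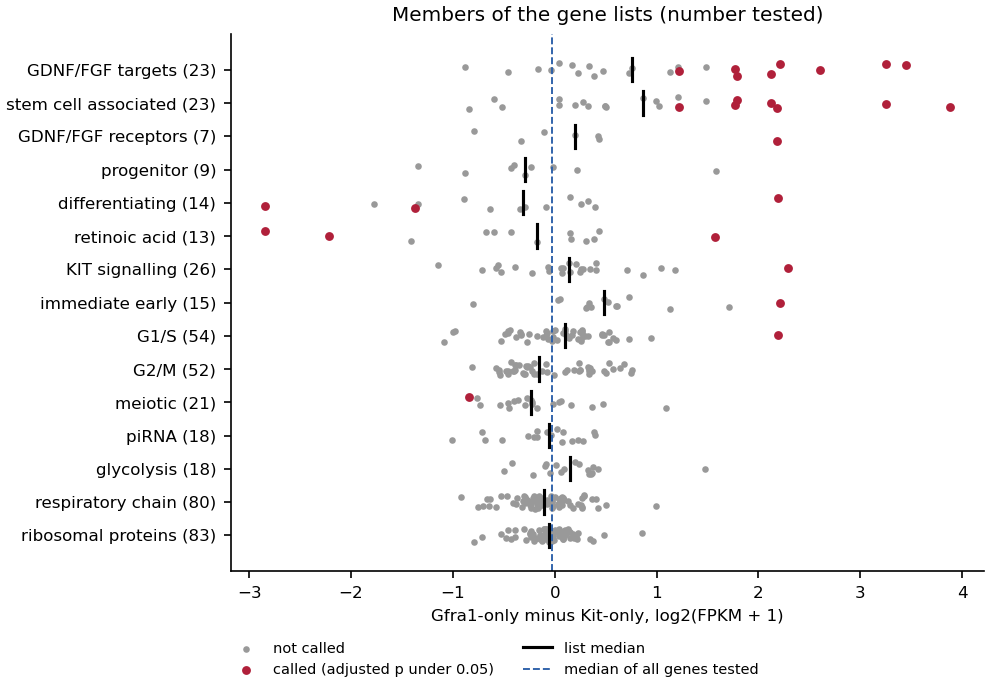
Each point is a tested member of a gene list, placed by its difference between Gfra1-only and Kit-only cells in log2(FPKM + 1); red points were called at an adjusted p under 0.05, black bars are list medians and the dashed line is the median of all 10450 genes (-0.03). The GDNF/FGF targets (0.76) and the stem cell-associated genes (0.87) have the highest medians, and the differentiating list has called members on both sides.

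Of 9 macrophage and blood markers only 2 were tested, and limma called 1: Cd68, a lysosomal protein gene (1.01 ± 0.24, adjusted p = 0.0359). Cd68 was detected in 17 of 75 Gfra1-only and 1 of 42 Kit-only cells. The summed level of Ptprc, Csf1r, Cd68 and Lyz2 ran from 0 to 144 FPKM in Gfra1-only and from 0 to 9.63 FPKM in Kit-only cells, with a median of 0 in both. Only 1 Gfra1-only cell had 2 of these 4 markers, and Lyz2 was listed at 0 in all cells of both classes.

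Pooled over preparations, 60% of Gfra1-only and 31% of Kit-only cells were bright, although the exact sign-flip test over preparations gave p = 0.25. The comparison was therefore repeated within bright (Q1 and Q2) and within dim (Q3 and Q4) cells. In dim cells limma called 49 genes (0.469%), 32 higher and 17 lower in Gfra1-only cells. The bright cells were 45 Gfra1-only and 13 Kit-only cells, the latter 1, 5, 0, 4 and 3 in preparations 1 to 5. In them limma called 0 genes (0%), with 588 of 10450 at an unadjusted p under 0.05 and a lowest adjusted p of 0.0657, for Tcl1. The test of the difference between bright and dim cells also called 0 genes (0%). It had 529 of 10450 at an unadjusted p under 0.05 and a lowest adjusted p of 0.524. No gene was therefore shown to differ between bright and dim cells. The 88 genes called without this split all had the same sign in bright and in dim cells. They were chosen from these same cells, so the shared sign describes the called genes and is not separate support. The share of all genes tested with the same sign in bright and dim cells is not given here.

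Among the called genes, Tcl1 differed by 3.45 ± 0.66 in bright and 3.71 ± 0.55 in dim cells, Spry4 by 2.26 ± 0.56 and 2.57 ± 0.47, Bcl6b by 2.14 ± 0.55 and 2.03 ± 0.47, and Stra8 by -3.23 ± 0.75 and -2.80 ± 0.63. Sdc4 differed by 0.57 ± 0.29 in bright and 1.99 ± 0.24 in dim cells, Etv5 by 1.60 ± 0.60 in bright and 4.01 ± 0.51 in dim cells, and Ccnd2 by 0.85 ± 0.58 and 2.93 ± 0.49. The test of that difference gave an unadjusted p of 0.000655 for Sdc4, 0.00416 for Etv5 and 0.00929 for Ccnd2, each with an adjusted p of 0.894. Cited1 (-1.35 ± 0.76 and -3.88 ± 0.64) and Kctd6 (-0.67 ± 0.78 and -3.28 ± 0.66) had the same order, with adjusted p of 0.938 for both.

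Detection of called genes from the stem cell and GDNF/FGF target lists varied among Kit-only cells. Of Etv5, Dusp6, Ret and Tcl1, chosen after their values were seen, all 4 were detected in 58 of 75 Gfra1-only cells (77.3%), and no Gfra1-only cell lacked all 4. Kit-only cells spread over the whole range: 9 had none of the 4, 12 had 1, 6 had 2, 5 had 3 and 10 had all 4. Those with at most 1 of the 4 numbered 3 of 6, 0 of 7, 11 of 17 and 7 of 12 in Q1 to Q4. By preparation they were 0 of 1, 2 of 7, 2 of 2, 5 of 14 and 12 of 18. The spread was not particular to Kit-only cells. Of the 39 cells with neither transcript, 4 had none of the 4 genes, 8 had 1, 9 had 2, 11 had 3 and 7 had all 4. Of the 122 cells with both transcripts, 90 had all 4.

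From the Kit side, Stra8, Sohlh2, Crabp1 and Dnmt3b were also chosen with their values known, and Dnmt3b was not called. All 4 were detected in 36 of 42 Kit-only cells and in 29 of 75 Gfra1-only cells. The same held for 90 of 122 cells with both transcripts and 17 of 39 with neither. These counts pool cells over preparations, and the contrast between the classes follows in part from the choice of genes.

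Cells with both transcripts had Etv5 about as often as Gfra1-only cells and Stra8 about as often as Kit-only cells. Etv5 was detected in 97.3% of Gfra1-only cells, 95.1% of cells with both, 51.3% of cells with neither and 40.5% of Kit-only cells. For Stra8 these percentages were 58.7%, 86.1%, 66.7% and 88.1%, and for Cited1 25.3%, 52.5%, 35.9% and 64.3%. These shares pool cells over preparations and were not tested.

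**Figure D5:**
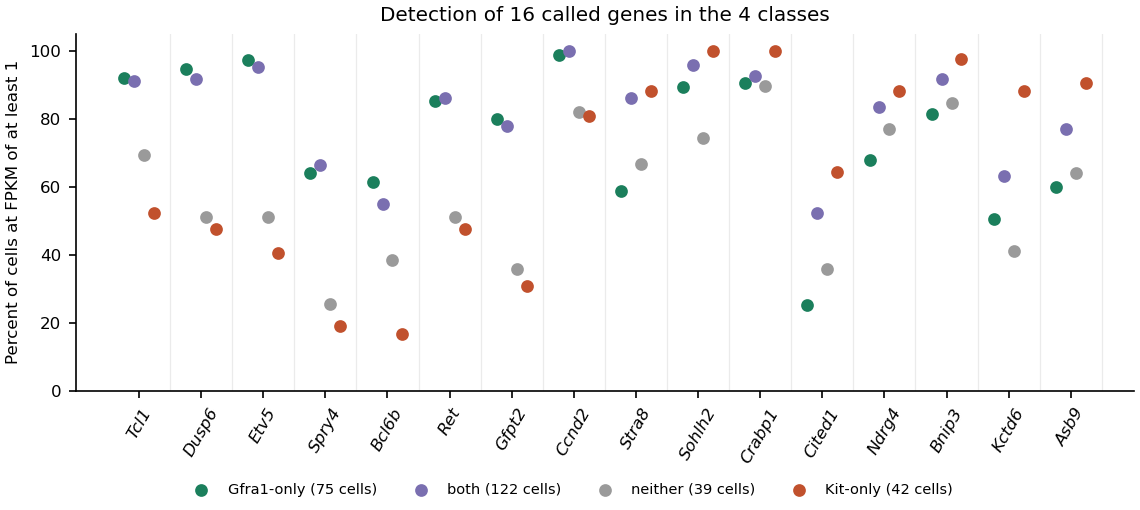
For 16 called genes, points give the percent of cells at an FPKM of at least 1 in Gfra1-only (75 cells), both (122), neither (39) and Kit-only cells (42), on a linear axis from 0. Cells with both transcripts lie beside Gfra1-only cells for Tcl1 to Ccnd2, and cells with neither lie beside Kit-only cells for Dusp6, Ret, Gfpt2 and Ccnd2.

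On GRCm38, Tcl1 lies at chr12:105216750-105222793 (minus strand), Etv5 at chr16:22381309-22439719 (minus), Dusp6 at chr10:99263231-99267489 (plus), Ret at chr6:118151745-118197718 (minus), Stra8 at chr6:34920163-34939344 (plus), Crabp1 at chr9:54764748-54773110 (plus) and Sohlh2 at chr3:55182028-55209957 (plus). FPKM are summed over a gene, so no exon or isoform can be named. Exons of Ccnd2, Ppfibp2, Mcam, Bhlhe41, Tspan8, Bnip3, Tuba4a, Sycp3 and Id4 share bases with a gene on the opposite strand, and those of Ell3 with Serinc4 on the same strand. Whether the quantification used strand is not given in the sources used here, so these values are uncertain to that extent. The called Gt(ROSA)26Sor is itself an antisense gene whose exons share bases with Thumpd3. A called row with a calendar date in place of its symbol is counted but not named.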

How the data were processed

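RNA of 278 single spermatogonia was sequenced after capture on a Fluidigm C1 chip, with SMARTer cDNA and Nextera libraries, per the labels' protocols; wells with dead cells or multiplets were left out by the submitters after imaging. The authors deposited 1 matrix of FPKM for 23354 genes; 6247 genes had no value above 0. FastQC, TopHat, Cufflinks, Picard and the build mm10 (GRCm38) are named in the submitters' processing notes; versions and settings are not stated. Because FPKM have lost the counts they came from, tests for counts were not used, and a listed 0 may be a failed estimate. The deposited unit was read from the quantifier's name and the values. A passage of the protocols orders the quartiles differently from the design text, which was followed.

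Members and gene lists were chosen with earlier results of these data known. Genes that reached an FPKM of 1 in 10% of cells or more were kept (10452), and Gfra1 and Kit were left out, leaving 10450. Means over cells of log2(FPKM + 1), pseudocount 1, per preparation and class (4 classes, 19 means, weighted by number of cells) were fitted with limma 3.58.1 (trend, R 4.3.3) with preparation as block and 11 residual degrees of freedom; tests are two-sided with Benjamini-Hochberg adjustment over all 10450 genes at 0.05. The block was kept because means of the same preparation deviated together (21 pairs, median correlation 0.17, lowest 0.05, against -0.06 between preparations). With preparation as block, the p-values measure how far class means departed from a shared class difference from preparation to preparation. This spread is pooled over all 4 classes, including the cells with both or neither transcript, and may be technical. Named genes are taken from the 15 of smallest p in each direction with the same sign in every preparation, members of the 5 stem cell, progenitor, differentiation and GDNF lists, and from the other lists those called and the 4 of smallest p; not every gene this allows is named, and 1 is not reported here; Capg, Sdc4, Cited1, Bnip3, Igfbp2, Abcc4 and Gal were named after their values were seen. Lists are described by counts and medians without a set test. Depth was estimated from the smallest steps of FPKM in 1845 genes with a single annotated transcript. No cell was repeated: the highest correlation between 2 cells was 0.692. Symbols of 21656 genes were matched to GENCODE M21, and upstream sequences came from RefSeq on GRCm38.p6. The fit was tested on simulated data. The alternatives tried were the fit on 2 classes, no block, a pseudocount of 0.1, no filter or one at 25% of cells, equal weights, detected genes or EGFP quartile as a covariate, a common 75th percentile, the log of the mean FPKM, a class threshold of 5 FPKM, the other gene listed at 0, cells with many detected genes, each preparation left out, and preparations 2, 4 and 5 alone, the last chosen after seeing the data.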

Additional observations from a re-analysis of the deposited data

Results flagged for a closer look

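Among 27 sets of 5 preparation differences examined, 3 had a preparation far from the other 4. Chance gives about 1 in 20 where all 5 differences are equally precise. Those of preparations 1 and 3 rest on 1 and 2 Kit-only cells, so that rate is only a rough guide here. Stra8 was -0.022 in preparation 1, where each class has a lone cell, and between -3.46 and -2.58 in the others. Sycp3 was -0.31 in preparation 2, against -0.97 to -1.20 elsewhere. Gm5480, a predicted gene called higher in Gfra1-only cells, was 4.21 in preparation 3, where its Kit-only mean rests on 2 cells.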

How the results depend on the processing

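The 88 calls (68 higher, 20 lower) changed in number with several choices, while the sign of all 88 stayed in every alternative in which they were tested (75 of 75 under the filter at 25% of cells). The alternatives reuse the same data, so the kept sign is not separate support. Without the replicate block 8 were called (7 and 1), with equal weights 3 (3 and 0), with the EGFP quartile as covariate 8 (6 and 2), and in cells with at least the median number of detected genes 4 (4 and 0). The fit on 2 classes called 51 (41 and 10), no filter 50 (37 and 13), and the log of the mean FPKM 56 (50 and 6), where 89.3% of calls were higher against 77.3% and the median of all genes was 0.11 against -0.03; the G2/M and meiotic list medians then became 0.06 and 0.01. Leaving out 1 preparation gave 6 to 119 calls, 5 to 81 higher and 1 to 38 lower: 79, 36, 119, 42 and 6 without preparations 1 to 5. Preparations 2, 4 and 5 alone gave 64 calls, 50 of them among the 88. Values of the genes named here stayed on their side of the threshold in 1151 of the alternative fits, fell short of it in 392 and newly passed it in 19. Direction changed in 4, all of genes that were not called: Rarg with equal weights (0.18), Etv4 (-0.00035) and Spry1 (-0.14) with the EGFP quartile as covariate, and Neurog3 in cells with many detected genes (0.079). The cause of these changes was not tested. A single cell has few fragments, so an undetected transcript may be present.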

Other observations

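Some genes called higher in Gfra1-only cells belong to none of the lists and are given after their values were seen. They include the transcription factor genes Foxc2 (1.74) and Bhlhe41 (2.08), the chemokine receptor gene Cxcr4 (1.07), Pmaip1, which encodes the BH3-only protein NOXA (2.40), Amot (1.85), Kat2b, an acetyltransferase gene (1.16), and Slc25a5, an ADP/ATP carrier gene (1.21), as differences in log2(FPKM + 1).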
